A study of Mus musculus with 3 samples.

Results

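Insulin-like growth factor (IGF) signalling genes were examined in the embryonic mouse ureter, the muscular tube between kidney and bladder through which urine is passed on. The family followed here is the ligand gene Igf1, the receptor genes Igf1r and Insr, and the binding protein genes Igfbp1 to Igfbp7. The members were listed by name, with earlier results of these data known. A member's probe sets are those that the platform annotation gives to that 1 symbol, which found all 10 genes, of 18194 named on the array, with 28 of its 45101 probe sets. The samples form 1 group of 3, replicates 3, 8 and 9, all of wild-type FVB/N embryos at embryonic day 15 (Theiler stage 23), with no treatment named and of unknown sex. Ureters were microdissected over their length between renal pelvis and bladder, not pooled, and each sample's RNA went through 2 rounds of amplification before hybridisation to a 1-colour Affymetrix Mouse Genome 430 2.0 array. Whether each sample is a separate embryo is not stated in the labels, and differences between samples may in part be technical. With 1 group there is no contrast between conditions and no test: the results are which genes gave signal above background and how far the samples differed.

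IGF1 and IGF2 are secreted growth factors that act through the IGF1 receptor, a tyrosine kinase, and IGF2 also acts through the insulin receptor encoded by Insr. Binding proteins hold IGFs in body fluids and in the matrix, prolong their lifetime and either block or assist their access to the receptor, and proteases release the ligand by cleaving them. IGFBP7 is a related protein that binds IGFs weakly. In the embryo IGF2 is a main growth-promoting ligand, and the IGF2 receptor removes it by taking it to lysosomes.

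The sequences just upstream of the start sites of the most and one of the least variable members over the samples are shown first, since the results return to these genes. They are RefSeq promoters of build GRCm38.p6, 250 bases before the annotated start, for Igfbp1 at chr11:7197537-7197786 (plus strand) and for Igf1r at chr7:67952007-67952256 (plus strand). Capitals mark AAAACAA, the core of the element through which forkhead factors and insulin are known to act on the IGFBP1 gene, in the Igfbp1 line, and GGGCGG, the GC box, in the Igf1r line.
Igfbp1: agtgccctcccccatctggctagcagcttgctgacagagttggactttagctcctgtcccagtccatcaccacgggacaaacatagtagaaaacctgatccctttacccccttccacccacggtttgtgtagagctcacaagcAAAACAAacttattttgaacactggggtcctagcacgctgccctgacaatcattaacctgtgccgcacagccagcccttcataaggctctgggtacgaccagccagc
Igf1r: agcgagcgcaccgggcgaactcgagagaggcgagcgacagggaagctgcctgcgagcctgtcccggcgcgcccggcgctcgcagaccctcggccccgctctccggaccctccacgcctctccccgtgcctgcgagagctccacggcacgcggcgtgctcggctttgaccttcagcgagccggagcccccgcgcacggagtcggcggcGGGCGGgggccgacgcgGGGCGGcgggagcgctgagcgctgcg
The Igfbp1 window had 53.2% G and C and 5 CpG dinucleotides, and the Igf1r window 77.6% and 42, against medians of 52.4% and 6 over all 32851 promoter windows of the table. AAAACAA or its reverse complement was found in the Igfbp1 window once, beginning 107 bases before the start, in no window of the other members, and in 8.11% of all windows. GGGCGG or its reverse complement was found 2 times in Igf1r, 4 times in Igfbp7 and 3 times at 1 of the 2 starts of Igfbp2, and in 32.7% of all windows. TATAAA or its reverse complement was found in Igfbp4 and Igfbp6 and in 12.4% of all windows. A match says only that these letters are present. The table held windows for 9 members, all but Insr.

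A gene or probe set was called above background when its log2(signal + 1) exceeded, on each of the 3 arrays, the 95th percentile of 46 measured genes that belong to other organs (retina, testis and pituitary among them). That level corresponded to signals of 449, 355 and 378 on the arrays of replicates 3, 8 and 9. A gene was represented by its brightest probe set. Of the 10 members, 9 were above background, against 55.0% of 18148 named genes and 72.7% of the named genes that, like 7 members, have several probe sets. At the level of probe sets 18 of 28 were above background, against 43.1% of all named probe sets. Brightness also depends on the probes, so signals of different genes do not rank their transcripts, and in whole ureter RNA fewer expressing cells and less RNA per cell cannot be told apart.

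Of the marker genes of ureter cell types, 7 of 10 smooth muscle, 7 of 11 urothelial and 7 of 8 ureteric mesenchyme genes were above background. The uroplakin gene Upk1b was among them. The share was 55.0% over all named genes and 72.7% over those with several probe sets, so the smooth muscle and urothelial counts do not stand out. The uroplakin genes Upk1a, Upk2 and Upk3a and the nuclear receptor gene Pparg were not above background on all arrays. Nor were the smooth muscle genes Cnn1, Lmod1 and Myocd and the mesenchyme gene Sox9. All 9 measured hepatocyte, all 10 skeletal muscle and all 6 measured erythroid genes were above background too, although the labels name only ureter.

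**Figure D1:**
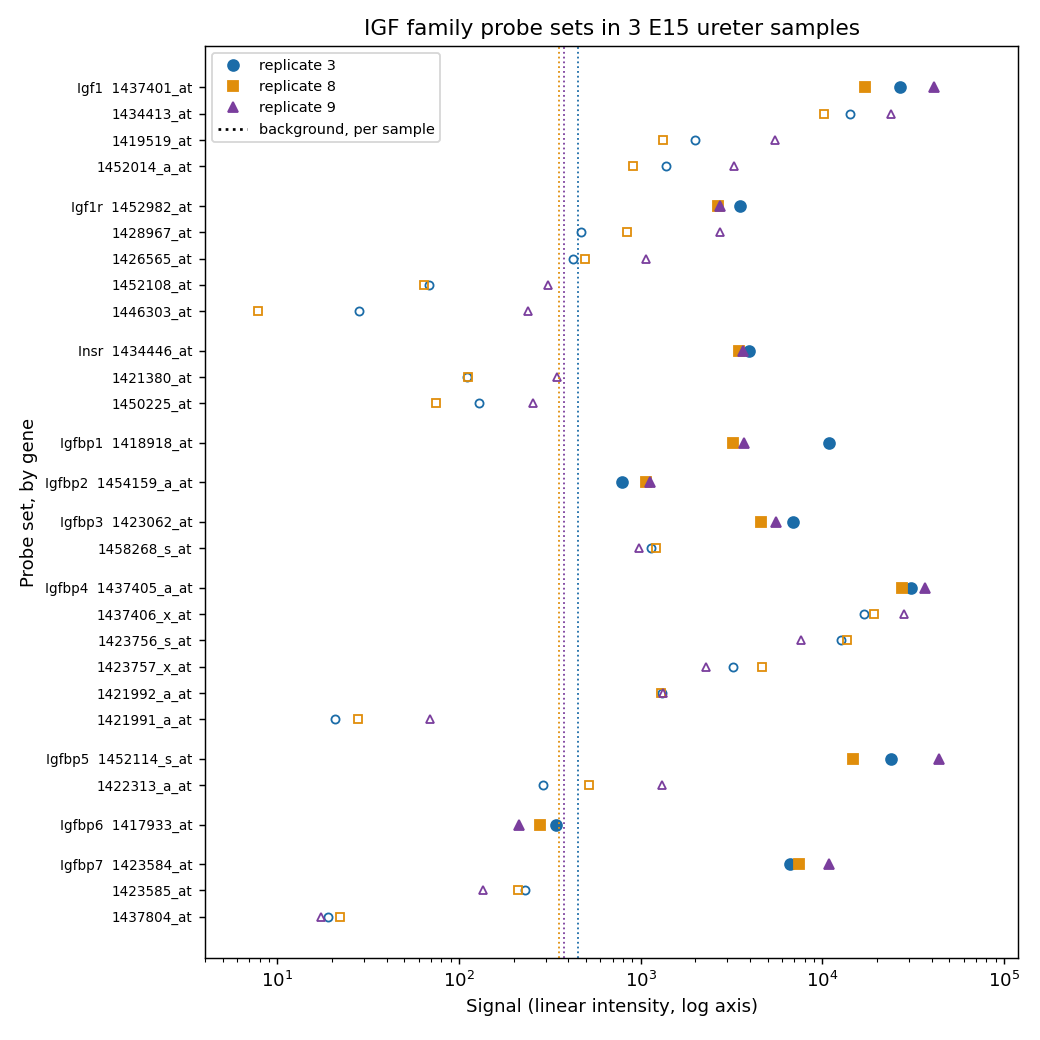
Signal (linear intensity on a log axis) of the 28 probe sets of the 10 IGF family genes in each of the 3 samples, with filled symbols for the brightest probe set of a gene and dotted lines for the background of each sample. Igfbp6 lies left of the background line of the same sample in every sample, and most open symbols of Igf1r and Insr lie left of the filled ones.

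Igf1, the ligand gene, had signals of 26747, 17126 and 41013 in replicates 3, 8 and 9 (28295 ± 12018, SD, n = 3). Replicate 9 was 2.39 times replicate 8, and the gene's range of 1.26 (log2) was reached by 6.96% of genes above background. The other 3 probe sets of Igf1 were also above background and put the samples in the same order, with replicate 9 between 2.35 and 4.13 times replicate 8. All its probe designs thus gave one order of the samples, although they measured the same RNA. Without replicate 8 the range was 0.62 and without replicate 9 it was 0.64.

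Igf1r, which encodes the receptor for IGF1 and IGF2, had signals of 3505, 2675 and 2715 in replicates 3, 8 and 9 (2965 ± 468). Replicates 8 and 9 lay within 0.02 of each other on the log2 scale and replicate 3 was 1.31 times replicate 8. That pattern belongs to the brightest probe set only. The next brightest gave 469, 844 and 2714, another gave 423, 494 and 1067 and was above background in 2 samples, and the remaining 2 were below background in every sample, with replicate 9 the highest of the 3 in all 4. With the mean over its 5 probe sets in place of the brightest, Igf1r was not above background and its range was 1.97 against 0.39.

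Insr, the insulin receptor gene, had signals of 3945, 3492 and 3674 (3704 ± 228) in replicates 3, 8 and 9, the narrowest range among the 9 members above background (0.18, reached by 92.0% of genes above background). Its other 2 probe sets were below background in every sample, and both were highest in replicate 9, at 344 and 256. With the mean over its 3 probe sets the range was 1.15. As for Igf1r, the samples' order thus differed between probe sets of the same gene.

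Igfbp1, whose protein is made by the liver and is known for its fast regulation by insulin and fasting, had signals of 10811, 3209 and 3715 in replicates 3, 8 and 9 (5912 ± 4251) from its single probe set. Replicate 3 stood apart at 3.37 times replicate 8, while replicates 8 and 9 differed by 0.21 on the log2 scale. The range of 1.75 was the widest in the family and was reached by 1.87% of genes above background. All 9 measured hepatocyte markers, among them Afp and Alb, were highest in replicate 3, intermediate in replicate 9 and lowest in replicate 8. That was the order of Igfbp1, which 14.8% of genes above background had. The spacing of the samples differed among the markers. Fgb gave 14469, 4709 and 4757 in replicates 3, 8 and 9, and Alb 51919, 33690 and 44594. With 3 samples, likeness of pattern cannot be measured. The signals of the 9 markers summed to 220095, 117519 and 167427 in replicates 3, 8 and 9. No marker was below 858 in any sample, and the markers' ranges ran from 0.62 to 2.37. Replicate 3 exceeded the mean of replicates 8 and 9 by 1.65 (log2) for Igfbp1 and by a median of 1.03 over the 9 hepatocyte markers. The order held under quantile normalization for Igfbp1 and for all 9 markers. Erythroid markers had the same order of summed signal, at 162820, 77828 and 119324, and 4 of 6 genes had it singly. The proliferation list summed to 202261, 165437 and 201058, with 3 of 7 genes in that order and 3 highest in replicate 9. The part of hepatocyte, erythroid or proliferating cells in the Igfbp1 values was not tested. Igf1r, Insr and Igfbp3 shared the order too, with ranges under 0.60.

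Igfals, the gene of the acid-labile subunit that the liver adds to circulating IGF complexes, was also highest in replicate 3 (336, against 79.7 in replicate 8 and 82.7 in replicate 9), but was not above background in any sample.

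**Figure D2:**
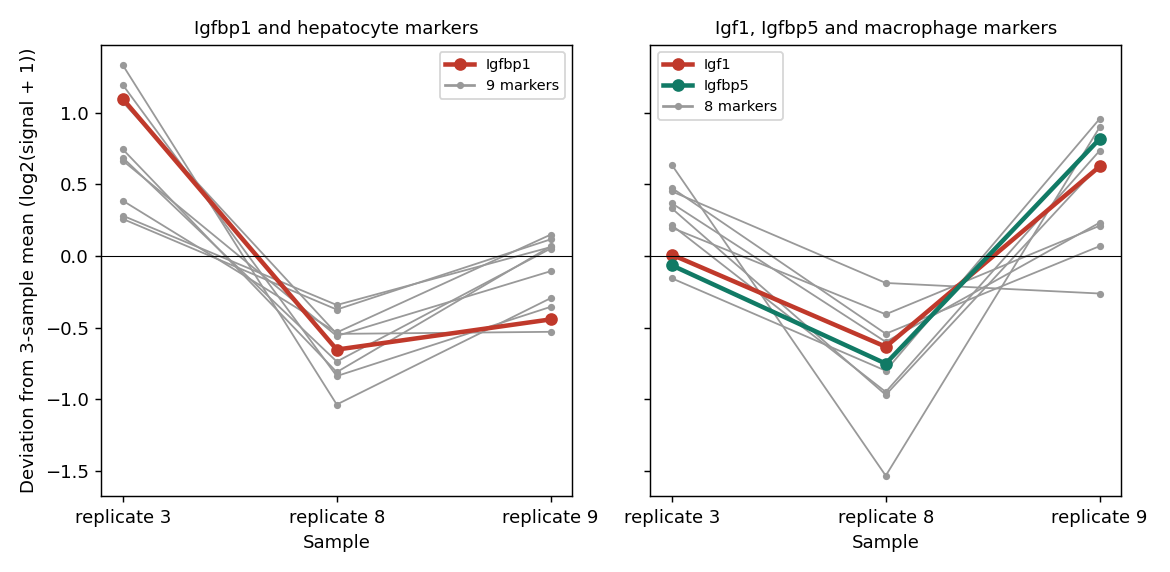
Deviation from the 3-sample mean on the log2(signal + 1) scale in each sample, with 1 line per gene joining its 3 values. Left, Igfbp1 and 9 hepatocyte markers are all highest in replicate 3 and lowest in replicate 8. Right, Igf1 and Igfbp5 are highest in replicate 9 and lowest in replicate 8, as are 5 of the 8 macrophage markers, of which 2 are among the 5 above background.

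Igfbp2, a binding protein gene widely active in embryonic tissues, had signals of 786, 1071 and 1127 in replicates 3, 8 and 9 (994 ± 183), from its single probe set. Replicate 3 was the low sample and the other pair differed by 0.07 (log2). With the 99th percentile of the background genes as the limit, Igfbp2 was not above background. Igfbp3, which encodes the main IGF carrier of adult blood, had signals of 6915, 4587 and 5565 (5689 ± 1169), and its second probe set, at 1144, 1216 and 983, was highest in replicate 8. Igfbp1 and Igfbp3 are neighbours on chromosome 11 with no protein-coding gene between them in the reference table, but Igfbp3 had a range of 0.59 and Igfbp1 one of 1.75.

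Igfbp4, the gene of a binding protein known mainly for holding IGFs away from the receptor, had signals of 30726, 27455 and 36569 in replicates 3, 8 and 9 (31583 ± 4617). Of its 6 probe sets 5 were above background, and they did not rank the samples alike. The brightest pair was highest in replicate 9, whereas the next pair, at 12657, 13733 and 7617 and at 3208, 4637 and 2286, was lowest there. The last bright probe set gave 1304, 1290 and 1327, a difference of 1.03-fold between its highest and lowest sample. No direction between samples can therefore be given for Igfbp4.

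Igfbp5, the gene of a binding protein that adheres to matrix, had signals of 23712, 14729 and 43743 in replicates 3, 8 and 9 (27395 ± 14853). Replicate 9 was 2.97 times replicate 8, and the range of 1.57 was reached by 3.14% of genes above background. The range was 0.88 without replicate 8 and 0.69 without replicate 9. This level rests on a probe set ending in _s_at, a kind that can match several transcripts. The other probe set, at 290, 518 and 1302, was above background in 2 samples and was also highest in replicate 9, but lowest in replicate 3. Igfbp2 and Igfbp5, which are neighbours on chromosome 1, were both highest in replicate 9, and under quantile normalization Igfbp2 was highest in replicate 8.

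Igf1 and Igfbp5 shared their order of samples, which 15.5% of genes above background had. Of the 12 marker lists, the summed signals of macrophage genes (23133, 12967 and 30529 in replicates 3, 8 and 9) and of fibroblast matrix genes (184206, 173806 and 187597) had it as well. Macrophages and mesenchymal cells are both known to make IGF1. Of the 8 macrophage markers 5 were above background, and of these 2 had that order and 2 the order of Igfbp1. Over all 8 markers 5 had the order of Igf1, 4 after quantile normalization, and no marker was below 265 in any sample. Csf1r alone gave 8111, 5183 and 17559 of the macrophage sums in replicates 3, 8 and 9. Without Csf1r the summed signal was highest in replicate 3, so the order of the sum rests on 1 gene. Of the 8 matrix genes, all above background and none below 3929, 2 had the order of Igf1. The matrix sums of replicates 3 and 9 were close to each other. The part of these cell types in the Igf1 and Igfbp5 values was not tested.

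Igfbp6, the gene of a binding protein that prefers IGF2, was the 1 member not above background, with signals of 341, 280 and 215 in replicates 3, 8 and 9 (278 ± 63.0) from a single probe set. It was below the limit in each sample, and under none of the alternatives run did it count as above background. Igfbp7, which is rich in vessel walls and matrix, had signals of 6661, 7388 and 10907 (8318 ± 2271) from 1 of its 3 probe sets, with replicate 9 the high sample. The other 2 were below background, at no more than 231 and 22.0 in any sample. With the mean over its probe sets in place of the brightest its range was 0.13 against 0.71. Endothelial markers summed to 14537, 12769 and 10567 in replicates 3, 8 and 9, with 6 of 9 above background and none below 90.5 in any sample. Among the 6, only Kdr, a receptor gene for vascular growth factor, had the order of Igfbp7, at 1049, 1442 and 2950. The others, Cdh5, Tek, Cldn5, Sox18 and Emcn, were all lowest in replicate 9, Tek at 3988, 3332 and 1467. Of the 12 marker lists 1 had that order of summed signal, the neuron and glia list, at 8980, 14081 and 18278, with 4 of 7 genes above background, 2 of these in that order, and none below 144 in any sample. Igfbp2 had the same order, as had 14.8% of genes above background. The part of these cell types in the Igfbp7 and Igfbp2 values was not tested.

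**Figure D3:**
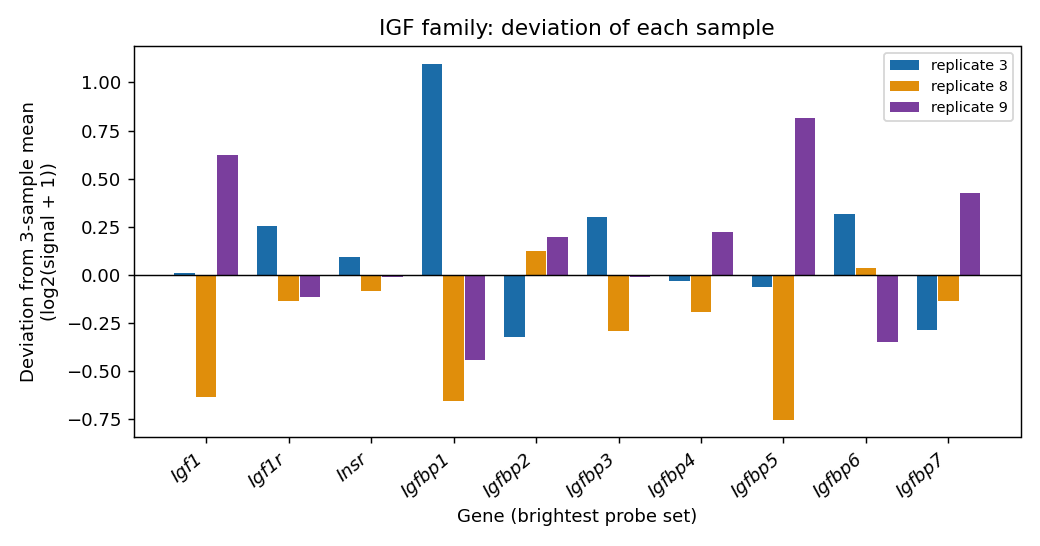
Deviation of each sample from the 3-sample mean (log2(signal + 1)) for the brightest probe set of each member. Igfbp1 stands out in replicate 3 and Igf1 and Igfbp5 in replicate 9, and the bars of Insr and Igf1r are short.

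Over the 9 members above background the median SD between samples was 0.30 (log2), against 0.28 over all 9982 genes above background. It was 0.20 without replicate 3, 0.37 without replicate 8 and 0.32 without replicate 9, against 0.25, 0.24 and 0.20 over all genes. With the mean over probe sets in place of the brightest, the median SD was 0.44 for the members and 0.28 over all genes. A range of at least 1 was found for 3 members, Igfbp1, Igfbp5 and Igf1, and for 14.3% of all genes above background. Replicate 9 was highest for 5 of the 9 and replicate 3 for 4, whereas replicate 8 was lowest for 7 and highest for none. Among all genes above background, replicate 9 was highest for 30.3%, replicate 3 for 34.2% and replicate 8 for 35.5%, and replicate 8 was lowest for 30.2%. These counts rest on the brightest probe set of each gene. Of the 7 members with several probe sets, only Igf1 had the same order of samples in all of them. Igf1r, Insr, Igfbp3, Igfbp4, Igfbp5 and Igfbp7 did not, though some of their dimmer probe sets were below background. Igfbp2 was highest in replicate 8 after quantile normalization.

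The upstream windows of Igfbp1, Igf1 and Igfbp5, the members with a range of at least 1, held 5, 5 and 10 CpG dinucleotides. Those of the other members with a window held 7 in Igfbp6, 14 and 11 at the 2 starts of Igfbp2, 22 in Igfbp4, 26 in Igfbp7, 32 in Igfbp3 and 42 in Igf1r. The median over all promoter windows was 6, so the counts of Igfbp1 and Igf1 were slightly below it and that of Igfbp5 above it. Igfbp6 had fewer than Igfbp5. With the mean over probe sets Igf1r also had a range above 1 (1.97), so the set of widest-ranging genes depends on the choice of probe set. A relation between CpG count and range was not tested.

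Dimmer probe sets of the family were mostly brightest in replicate 9. Of the 28 probe sets 18 were highest there, among them 7 of the 10 that were not above background in all samples and 11 of the 18 that were. Most of the 18 highest in replicate 9 belong to Igf1, Igf1r and Igfbp4, and most of the 7 dim ones to Igf1r and Insr. Probe sets of the same gene measured the same RNA, so these counts are not independent observations, and a family-wide trait was not tested. On the whole array 43.9% of named probe sets not above background and 31.8% of those above it were highest in replicate 9. Probe sets at both ends of the actin transcript were highest in replicate 9. The 3′ signals were 21384, 25547 and 49451 and the 5′ signals 2868, 3932 and 12348 in replicates 3, 8 and 9. The Gapdh 5′ signal was highest in replicate 9 and its 3′ signal in replicate 3. For actin the 5′ signal was 0.25 of the 3′ signal in replicate 9, 0.134 in replicate 3 and 0.154 in replicate 8. For Gapdh these ratios were 0.0611, 0.053 and 0.0662 in replicates 9, 3 and 8, so that replicate 9 was not the highest. Amplification starts at the 3′ end of transcripts. The part of amplification length in the family's values was not tested.

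**Figure D4:**
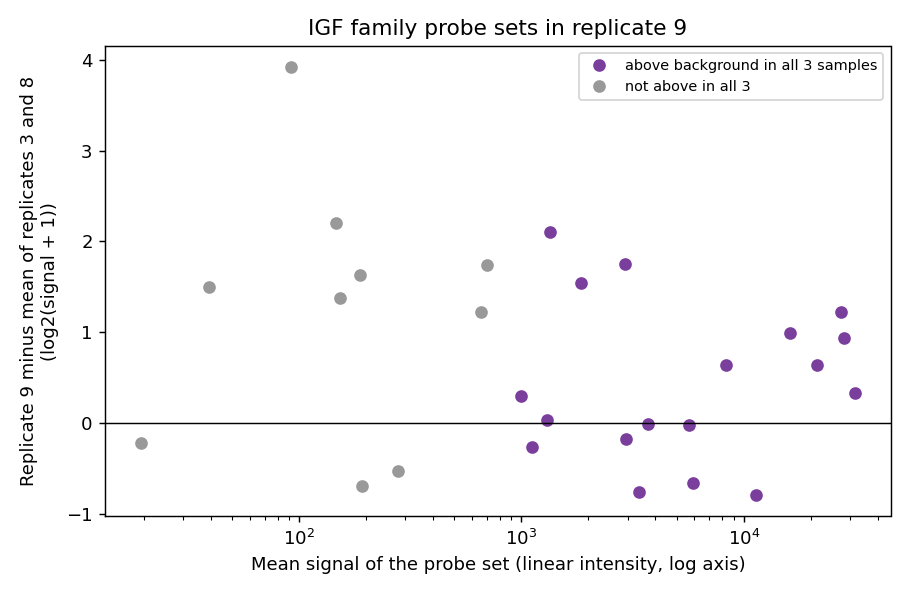
Difference between replicate 9 and the mean of replicates 3 and 8 (log2(signal + 1)) for the 28 family probe sets, against their mean signal on a log axis. Most probe sets that were not above background (grey) lie above 0, with a median of 1.43, and those above background (purple) scatter around a median of 0.31.

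The wider pathway was described from 56 genes grouped by role, 51 of them measured. Of these 43 (84.3%) were above background, against 55.0% of named genes and 72.7% of those with several probe sets. The counts by role given below stand beside the same shares. Among other ligands and receptors 3 of 7 (42.9%) were above background. Igf2, the imprinted growth factor gene, had signals of 34547, 28143 and 31722 in replicates 3, 8 and 9, a range of 0.30 against 1.26 for Igf1. Igf2r, the gene of the receptor that clears IGF2, had signals of 5051, 4796 and 4418, and Ghr, the growth hormone receptor gene, 20568, 19079 and 31050. Both IGF ligand genes and both signalling receptor genes thus gave signal above background in each sample. The insulin gene Ins2 (198 ± 35.3), the orphan receptor gene Insrr (at most 71.5 in any sample), Igfbpl1 (41.3 ± 17.7) and Igfals (166 ± 147) were below background in every sample.

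Of 9 genes for proteases of binding proteins and for protease inhibitors, 7 (77.8%) were above background. That is near the 72.7% of named genes with several probe sets, so this count does not stand out. Htra1 (2935 ± 625) and Htra3 (570 ± 85.6), secreted serine proteases, and Adam9 (5015 ± 546), a membrane metalloprotease, were among them. Adam12, a metalloprotease known to cleave IGFBP3 and IGFBP5, had signals of 4078, 2817 and 8167, again with replicate 9 high and replicate 8 low. Prss23 (1609 ± 396), a secreted serine protease listed here without a known action on binding proteins, and Pappa2 (654 ± 247), a protease of IGFBP3 and IGFBP5, were above background too. Pappa, the gene of the IGFBP4 protease pappalysin, was above background in 2 samples, with signals of 358, 1120 and 454. Of the stanniocalcin genes, whose products inhibit that protease, Stc1 had signals of 1533, 2567 and 2813, and Stc2 (399 ± 160) was above background in replicate 9 only.

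Both measured genes of RNA-binding proteins named for IGF2 mRNA were above background, Igf2bp3 at 17694 ± 1329 and Igf2bp1 at 2540 ± 793. Of 14 genes of receptor adaptors and inhibitors 12 (85.7%) were above background. The brightest probe sets were those of Grb10 (40483 ± 3307), an imprinted gene whose adaptor protein restrains insulin and IGF1 receptors, the phosphatase gene Ptpn11 (19186 ± 1230) and the docking protein genes Gab1 (13941 ± 1017) and Irs1 (12489 ± 1359). Irs4 was above background in 2 samples, with 357, 659 and 934. Irs2 was below it in every sample, with 7.74, 13.2 and 164 from its single probe set.

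All 19 measured genes of the PI3K, AKT, mTOR and FOXO branch were above background. By mean log2(signal + 1) the 4 brightest probe sets were those of Rheb (25499 ± 1507), the GTPase gene upstream of mTOR, Foxo3 (16047 ± 2730), a forkhead factor gene, the PI3-kinase catalytic gene Pik3ca (10478 ± 2984) and Mtor (7096 ± 161), while Eif4ebp1, a gene of a translation inhibitor downstream of mTOR, had about the same linear mean (7120 ± 1639). Mtor had a range of 0.06 and Rheb one of 0.16. The median SD over the 43 pathway genes above background was 0.30, as in the family.

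**Figure D5:**
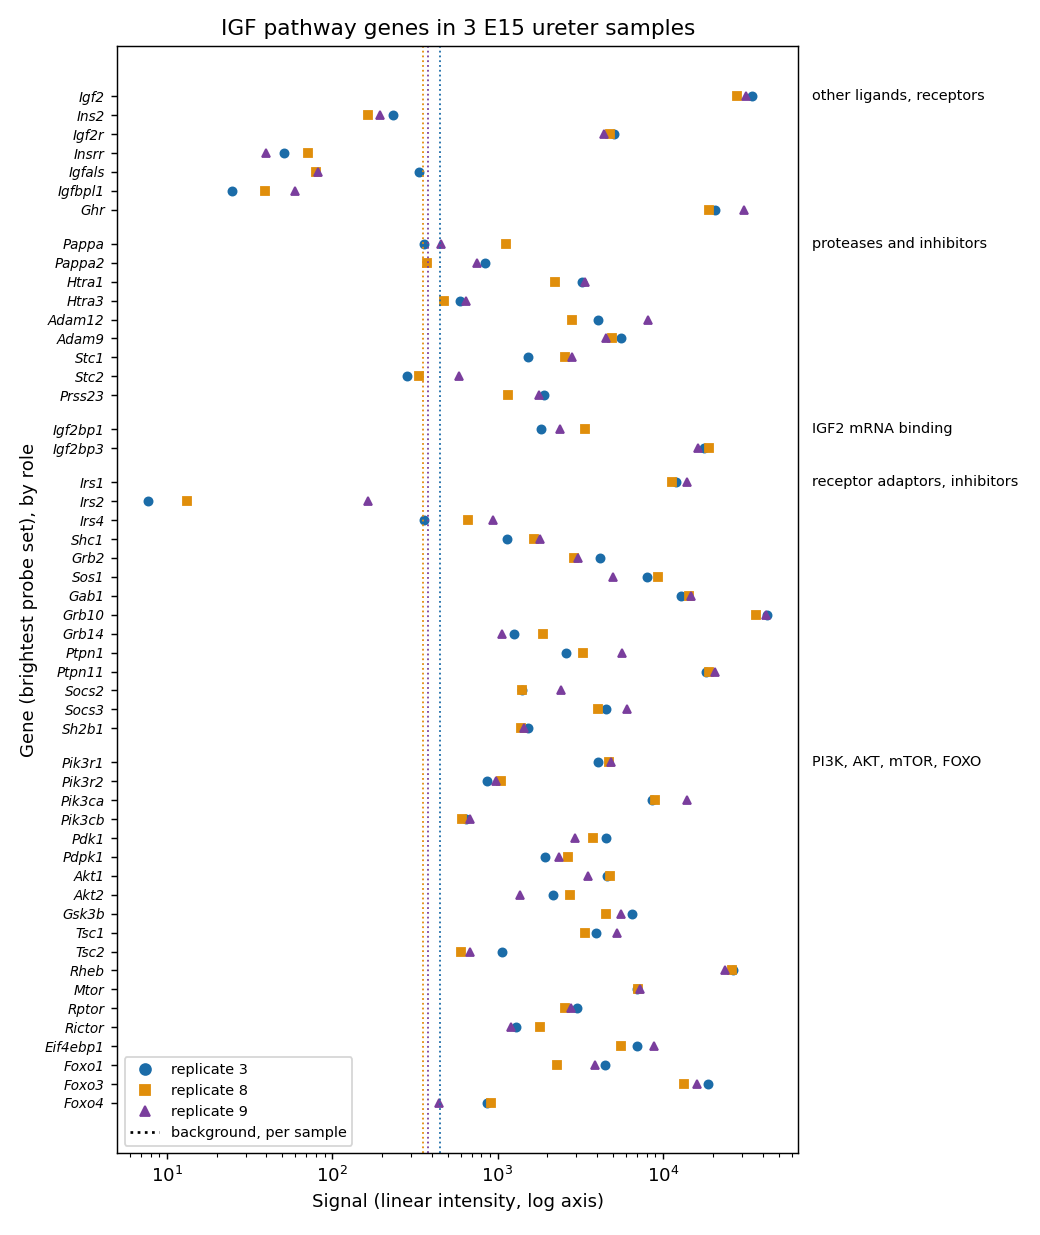
Signal (linear intensity on a log axis) of the 51 measured pathway genes in each of the 3 samples, by role, with dotted lines for the background of each sample. All genes of the PI3K, AKT, mTOR and FOXO group lie right of the dotted line of the same sample, and Insrr, Igfbpl1 and Irs2 lie farthest to the left.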

How the data were processed

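Levels come from the deposited table of linear intensities, with a value for each probe set on each array, made by the authors with GCOS, per the submitters' processing notes, which give no version. No value was 0 or less, and trimming 2% at each end left a mean of 1500 on each of the 3 arrays, so arrays had been scaled to a common mean, and each level is relative to the rest of its array. Medians differed (234, 198 and 273 in replicates 3, 8 and 9), so no quantile normalization had been applied. Background handling is not given in the sources used here. The number of arrays limits the precision.

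Gene names are those of the platform annotation, in which 34958 probe sets had 1 symbol, 932 several and 9211 none here. All 166 probe sets of the family and pathway matched the reference table by Entrez ID with no symbol changed. Signals were analysed as log2(signal + 1) in Python 3.11.15 with pandas 2.3.3. The calls were also run on simulated data whose expressed genes lay far above background, which does not test calls near the limit. Of 50 background genes 46 were measured, and 2 of these were above background. Of the pathway genes, 5 were not analysed here, among them Ins1 and Igf2bp2. The list of PI3K genes includes Pdk1, which encodes a pyruvate dehydrogenase kinase. Named are all members, every measured gene of the 3 shorter pathway lists, and of the longer 2 lists the 4 highest by mean log2 and any measured gene not above background. The members and lists were chosen with earlier results of these data known. Alternatives were quantile normalization, other background percentiles, 2 of 3 arrays, other probe set choices, pseudocounts of 16 and 64, centring and leaving out each sample.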

Additional observations from a re-analysis of the deposited data

How the results depend on the processing

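The number of family genes above background, 9, was 8 or 9 in every alternative run, and Igfbp6 was not above background in any. The exceptions beside it were Igfbp2 with the 99th percentile as background, Igf1r with the mean over probe sets and Igfbp5 when probe sets with the endings _x_at and _s_at were left out. The pathway count of 43 ran from 35 (mean over probe sets) to 46 (90th percentile), and that of family probe sets, 18, from 16 (99th percentile) to 20. Over the alternatives the share of all named genes above background ran from 42.5% (99th percentile) to 61.1% (90th percentile). It was 49.1% with the mean over probe sets. The median SD of the family, 0.30, was 0.20 without replicate 3, 0.37 without replicate 8, 0.32 without replicate 9 and 0.44 with the mean over probe sets. Over all genes the median SD with the mean over probe sets was 0.28, so the family's closeness to all genes depends on the choice of probe set. The highest sample was the same after quantile normalization and after centring for all members but Igfbp2. The lowest sample of Igfbp4 was replicate 3 instead of 8 after quantile normalization. Ranges of single genes rest on 1 sample in several cases: that of Igfbp1 was 0.21 without replicate 3, that of Igf1r 0.02 and that of Insr 0.07. Without replicate 9 the range of Igfbp7 was 0.15 and that of Igfbp4 was 0.16. The exchange of the background list was not run: the design put another list first, which was not used here, and the list planned as the alternative took its place. No paired analysis was possible because the samples form 1 group. Signals near background limit what can be said of Igfbp2 and Igfbp6.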
